A study of Mus musculus with 24 samples.

Results

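Kidney and liver of mice given cisplatin together with the TLR5 agonist CBLB502 were compared 72 h after cisplatin. The comparison takes the 3 kidney and the 3 liver libraries of the combination group, 6 of the 24 libraries of the series, chosen by their labelled tissue and treatment and not by any measured value. The whole series holds bulk RNA-seq gene counts of kidney and liver from C57BL/6 mice in 4 arms of 3 libraries per organ: no treatment, CBLB502, cisplatin, and both agents. In the combination arm cisplatin was injected intraperitoneally at 20 mg/kg, and CBLB502 was given at 0.2 mg/kg 30 min earlier. Kidney and liver of this arm share the strain, both agents, both doses and the time, so that their labels differ in the organ. Whether the animals or the handling of the libraries also differed is not labelled and cannot be told apart from the organ. Age and sex are not given in the sources used here. Nothing in the labels ties the 3 libraries of a group to different animals, or a kidney and a liver to 1 animal, so the p-values below measure the spread between libraries, which may be technical. The kidney libraries carry the numbers 4, 5 and 6 and the liver libraries 1, 2 and 3, which are used here as names only.

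Cisplatin is a platinum drug that crosslinks DNA. It is filtered and secreted by the kidney, where proximal tubule cells take it up from the blood side through the organic cation transporter SLC22A2 and the copper transporter SLC31A1, and its main dose-limiting harm is to those cells. DNA damage stabilises p53, which switches on genes for cell cycle arrest, for its own degradation (Mdm2) and for apoptosis. Hepatocytes take up and export the drug through other transporters and are rich in glutathione and metallothionein, which bind platinum. CBLB502 (entolimod) is a shortened bacterial flagellin that activates TLR5 and through MYD88 the NF-kB pathway, and hepatocytes are known as a main site of that response.

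The 6 libraries held 70475749 to 76503278 counts in kidney and 71244822 to 73357203 in liver. Levels are given as CPM, counts scaled to a common library size, which allow a gene to be compared between libraries but not with another gene. Across genes with a mean above 1 CPM, Pearson correlations of log2(CPM + 1) ran from 0.983 to 0.990 between libraries of 1 organ and from 0.566 to 0.602 between organs. Mitochondrially encoded genes took 7.49 to 7.8% of the counts in the kidney libraries and 4.39 to 5.25% in the liver libraries. In the untreated libraries, used only for the comparison of arms at the end, they took 60.7 to 72.2%. The 100 most abundant genes took 31.2% of kidney counts and 48.7% of liver counts; Alb alone took 7.01% in liver, and Gpx3, the plasma glutathione peroxidase made by proximal tubule, took 3.87% in kidney. Levels were compared after trimmed-mean (TMM) scaling, and scaling by total counts alone moved the median difference of all genes by 0.83 on the log2 scale towards kidney. Among the other arms, liver cisplatin library 3 and kidney cisplatin library 6 stood apart from their groups, with root mean square differences in log2 level of 0.867 and 0.740 from the others of their group, against 0.539 to 0.642 for the other cisplatin libraries and 0.248 to 0.295 for the combination libraries.

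Of the 18300 genes that passed a filter on low counts and were tested, 11618 (63.5%) were called different at an adjusted p under 0.05 in edgeR's quasi-likelihood test, 6216 (34%) of them higher in kidney and 5402 (29.5%) higher in liver. The 3 libraries of 1 organ all lay above the 3 of the other for 13182 genes (72%). A difference past 2-fold was called for 5926 genes (32.4%). Very large differences were more often towards kidney: among called genes without overlap, 1368 were over 32-fold higher in kidney and 698 in liver, and 917 against 525 were over 100-fold. At the other end, the 95% interval of the difference lay within 2-fold in either direction for 5179 genes (28.3%). With total counts in place of trimmed-mean scaling, 12993 genes were called and 81.3% of them were higher in kidney, against 53.5% here, so the balance of the directions rests on the scaling.

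**Figure D1:**
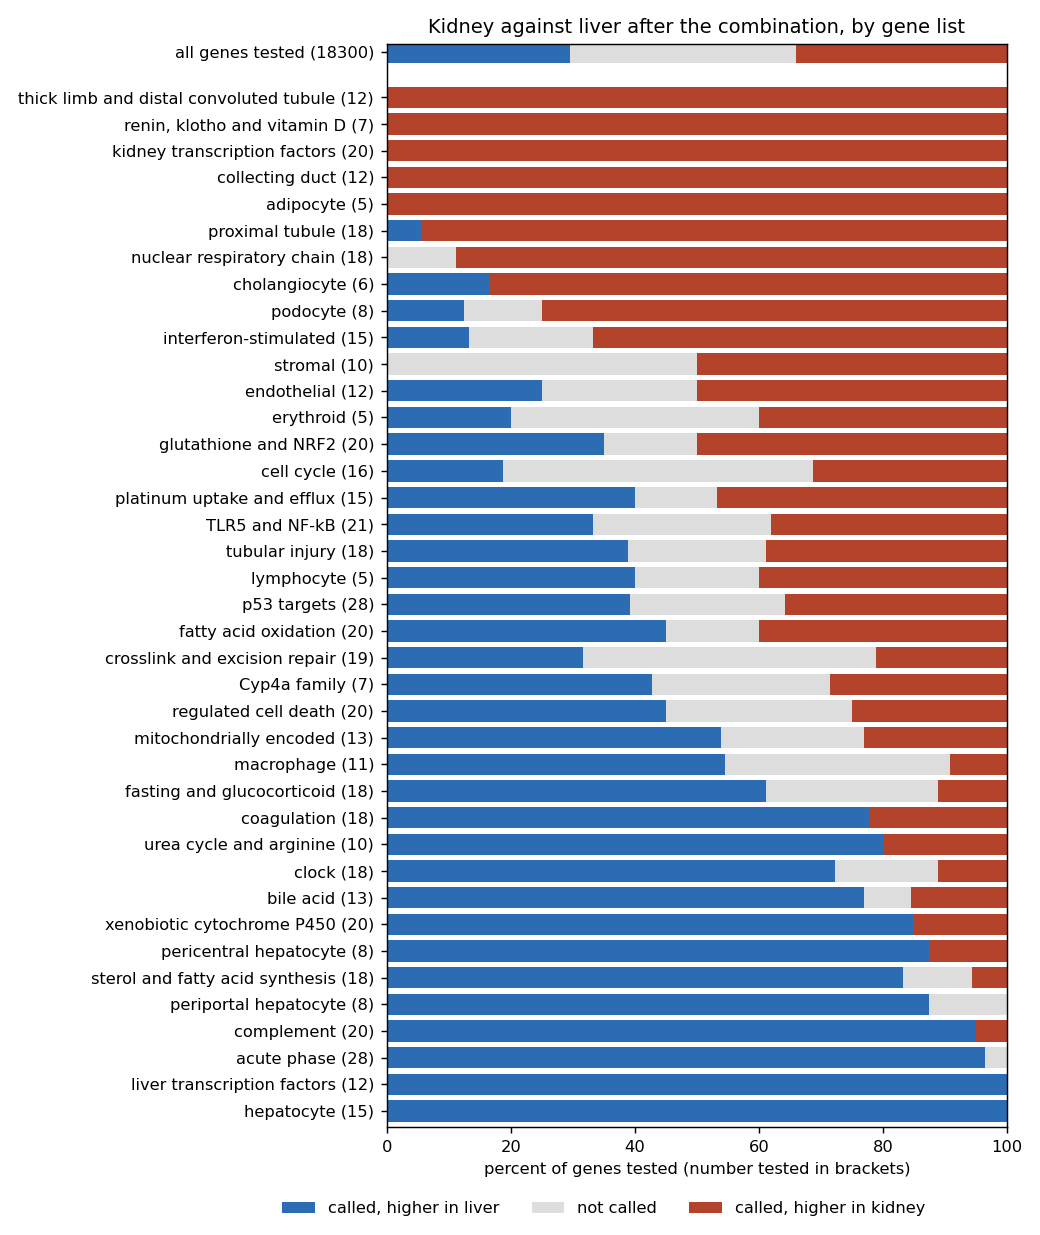
Percent of the tested members of each gene list that were called higher in liver (blue), called higher in kidney (red) or not called (grey), with the number tested in brackets; the top bar gives all 18300 genes. The lists of hepatocyte genes and liver transcription factors are blue throughout, the nephron lists are almost wholly red, and the lists of p53 targets, tubular injury and platinum transporters hold both colours.

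Among named genes with a mean of at least 100 CPM in the higher organ, the 10 furthest towards kidney were mainly tubular transporters, receptors and enzymes. SGLT2, the glucose transporter of early proximal tubule encoded by Slc5a2, stood at 196, 204 and 178 CPM in kidney and 0.461, 0.307 and 0.278 CPM in liver (log2 fold change, kidney minus liver, 9.10 ± 0.18, SE; adjusted p = 4.5e-08). Values with ± in brackets are in the same way log2 fold changes of kidney minus liver with their SE, and single signed values are log2 fold changes. Aqp2, the vasopressin-regulated water channel of the collecting duct, stood at 298, 406 and 286 against 0.62, 0.557 and 0.798 CPM (8.97 ± 0.23; adjusted p = 9.9e-08). Slc22a12, the urate exchanger URAT1, stood at 1023, 742 and 991 against 1.24, 2.42 and 2.1 CPM (8.90 ± 0.32; adjusted p = 3.4e-07). In each of these genes the lowest kidney library was more than 100 times the highest liver library. The other members of the group reported here were Wfdc15b, Dao (D-amino acid oxidase), the organic anion transporter Slco1a6, the glutamate carboxypeptidase Folh1, the folate receptor Folr1 and the kidney cadherin Cdh16, with log2 fold changes from 8.75 to 9.36. Wfdc15b, a small whey acidic protein family member, stood at 39.3, 145 and 122 CPM in kidney, with library 4 the lowest.

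By the same rule, the 10 genes furthest towards liver were led by the major urinary proteins, which liver secretes into blood for excretion in urine. Mup18 had no count in any kidney library and 1789, 658 and 1457 CPM in liver, which makes it at least 126188-fold higher in liver, taking 3 counts over the 3 kidney libraries as the floor. Mup12 stood at 0.399, 0 and 0 CPM in kidney and 5863, 5191 and 1006 CPM in liver (-14.91 ± 1.48; adjusted p = 7.1e-05). The liver libraries of these genes lay far apart although none overlapped kidney, and the genes of this family are near copies whose reads can be split in counting, so their single values are uncertain. Mup10, Mup11 and Mup19 were the other members of the family among the 10. Nlrp12, a cytosolic immune regulator, stood at 0.0863, 0 and 0.0294 CPM in kidney and 117, 107 and 141 CPM in liver (-11.59 ± 0.41; adjusted p = 3.4e-07). The remaining genes were the cytochromes Cyp2c29 and Cyp2c37, the carboxylesterase Ces2a and the sulfotransferase Sult2a8, at -11.25, -10.99, -11.24 and -11.18.

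The stretches before the RefSeq starts of Mup18, Mup10 and Mup19 are shown because these genes stood together at the liver end and are near copies. Each is the 100 bases that end just before the RefSeq start (GRCm38.p6, minus strand, 5′ to 3′), and capitals mark the longest run that all 3 share.
Mup18 (chr4:61674095-61674194): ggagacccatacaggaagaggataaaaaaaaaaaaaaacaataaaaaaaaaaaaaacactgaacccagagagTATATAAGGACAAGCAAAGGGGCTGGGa
Mup10 (chr4:60582156-60582255): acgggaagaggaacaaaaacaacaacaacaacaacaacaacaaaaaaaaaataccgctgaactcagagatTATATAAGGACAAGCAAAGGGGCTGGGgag
Mup19 (chr4:61782225-61782324): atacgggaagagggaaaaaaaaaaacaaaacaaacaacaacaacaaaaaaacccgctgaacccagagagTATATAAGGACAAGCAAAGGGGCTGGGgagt
The sequences are RefSeq's. In the annotation of the counts Mup18, Mup10 and Mup19 start further upstream, at 61674136, 60582199 and 61782269. The marked runs thus lie inside the gene models of the counts. The shared run is 27 bases long and starts 28, 30 and 31 bases before the RefSeq starts of Mup18, Mup10 and Mup19. Of 32851 RefSeq windows from 250 bases before to 50 bases after a gene's start, 9 (0.0274%) held the whole run on either strand, all of them of Mup genes, Mup11 included, out of 14 Mup windows. The match is a description of the letters and was not tied to the levels.

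The tissue labels were checked against cell type genes. All 15 hepatocyte genes were called higher in liver (median log2 fold change -8.22, against 0.09 over all genes tested). Alb, serum albumin, stood at 145, 42.8 and 61.2 CPM in kidney and 80598, 112240 and 89048 CPM in liver (-10.14 ± 0.63; adjusted p = 5.5e-06). Apoa1, the main protein of HDL, stood at 32.8, 11 and 10.7 against 12571, 16820 and 13847 CPM (-9.63 ± 0.62; adjusted p = 6.5e-06). Kidney library 4 held the highest Alb and Apoa1 of the kidneys, and no kidney library came near a liver library. In bulk tissue fewer cells of a type and less RNA per cell cannot be told apart.

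Along the liver lobule, genes of the periportal zone, where blood enters, and of the pericentral zone, where it leaves, were mostly higher in liver. Of 8 periportal genes 7 were called higher in liver with Pck1 as the exception, and of 8 pericentral genes 7 were higher in liver and 1 in kidney. Hal, histidase, stood at 0.626, 0.198 and 0.46 CPM in kidney against 561, 437 and 613 CPM in liver (-10.29 ± 0.41; adjusted p = 5.5e-07). Cyp1a2, a pericentral cytochrome P450, stood at 0.0432, 0.104 and 0.0685 against 114, 110.0 and 152 CPM (-10.73 ± 0.27; adjusted p = 8.5e-08). Bile duct genes did not follow the organ: 5 of the 6, among them the keratins Krt19 and Krt7 (2.89 and 6.60) and the epithelial adhesion gene Epcam (5.29), were higher in kidney, whose tubules also express them, and Sox9 was higher in liver (-1.38 ± 0.29; adjusted p = 0.004). The call of Sox9 was lost on total counts and with all 24 libraries fitted, where no gene of this list was called higher in liver.

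**Figure D2:**
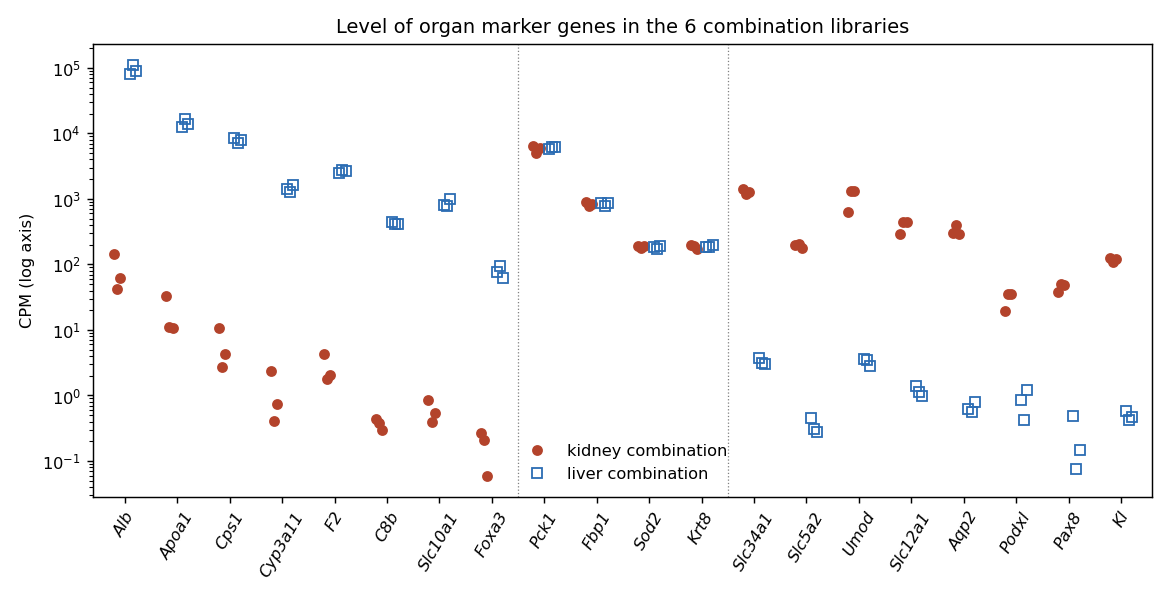
Level per library on a log axis (CPM, 6-library scaling) of 20 genes, with kidney as filled red circles and liver as open blue squares; each organ has 3 libraries. Left of the first dotted line are genes higher in liver, right of the second genes higher in kidney, and between them Pck1, Fbp1, Sod2 and Krt8, whose libraries overlap between organs.

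Nephron genes were higher in kidney along the whole tubule. All 12 genes of thick ascending limb and distal convoluted tubule and all 12 of the collecting duct were called higher in kidney, as were 17 of 18 of the proximal tubule, with medians of 7.72, 7.96 and 8.35 (8.32 with Slc7a12, absent from liver, at its bound). Slc34a1, the proximal phosphate transporter, stood at 1430, 1178 and 1271 CPM in kidney and 3.78, 3.17 and 2.99 CPM in liver (8.61 ± 0.18; adjusted p = 4.6e-08). Lrp2 (megalin), the endocytic receptor that reclaims filtered protein, stood at 398, 369 and 368 against 1.79, 0.634 and 1.04 CPM (8.35 ± 0.35; adjusted p = 7.8e-07). Kap, the androgen-regulated kidney protein, stood at 11385, 9386 and 10387 against 28.9, 34 and 31.2 CPM (8.37 ± 0.18; adjusted p = 5.6e-08). The 3 kidney libraries lay close together for these proximal genes. The exception of the list was Slc22a30, at 52.3, 30.3 and 41.9 CPM in kidney and 84.9, 78 and 86.2 CPM in liver (-1.0 ± 0.18; adjusted p = 0.002), a gene whose liver level exceeded that of every kidney library. Its call was lost on total counts and with all 24 libraries fitted, where no gene of the list was called higher in liver.

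In the thick limb and distal convoluted tubule list, kidney library 4 was the lowest of the kidneys for 11 of 12 genes, with a median of 0.664 times the mean of the other kidneys. Umod, uromodulin of the thick limb, stood at 621, 1323 and 1316 CPM in kidney and 3.62, 3.53 and 2.82 CPM in liver (8.35 ± 0.38; adjusted p = 1.2e-06), with kidney library 4 at less than 50% of either other kidney. Slc12a1, the NKCC2 salt transporter of the same segment, stood at 293, 439 and 442 against 1.38, 1.13 and 0.965 CPM (8.39 ± 0.26). Egf, made by thick limb and distal convoluted tubule, stood at 96, 242 and 360.2 against 1.88, 3.19 and 1.97 CPM (6.63 ± 0.56; adjusted p = 2.8e-05), again lowest in kidney library 4. In the collecting duct, Scnn1g, a subunit of the epithelial sodium channel, stood at 23.3, 25.5 and 24 CPM in kidney with no count in liver, at least 1313-fold higher. Foxi1 and Slc26a4, of intercalated cells, stood at 20.3, 20.3 and 21.5 and at 38.5, 32.1 and 33.4 CPM in kidney, with no liver library above 0.26 CPM.

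Podocyte genes were split. Of 8, 6 were higher in kidney and 1 in liver. Podxl, the podocalyxin of the podocyte surface that endothelium also carries, stood at 19.3, 34.9 and 35.1 CPM in kidney and 0.851, 0.423 and 1.21 CPM in liver (5.16 ± 0.40; adjusted p = 1.8e-05). Kidney library 4 was the lowest of the kidneys for it and still above every liver library. Ptpro, a receptor phosphatase of podocytes, stood at 3.31, 4.07 and 4.36 against 0.0532, 0.0576 and 0 CPM (6.66 ± 0.62; adjusted p = 4.9e-05). Synpo was not called (0.24 ± 0.18; adjusted p = 0.28).

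The endocrine and mineral genes of kidney were all higher there. All 7 tested genes for renin, klotho, vitamin D and distal calcium handling were called higher in kidney, with a median of 7.92. Kl, the klotho co-receptor of FGF23, stood at 128, 108 and 119.6 CPM in kidney and 0.585, 0.423 and 0.464 CPM in liver (7.91 ± 0.15; adjusted p = 4.4e-08). Cyp27b1, which activates vitamin D, stood at 86.7, 33.7 and 25.5 CPM in kidney and 0.266, 0.0576 and 0.316 CPM in liver (7.81 ± 0.70; adjusted p = 4.0e-05), and Cyp24a1, which inactivates it, stood at 79.5, 85 and 129.6 CPM in kidney. For Cyp27b1 kidney library 4 was the highest, and for Ren1, renin, at 12, 29.5 and 27.1 CPM, it was the lowest. Trpv5, the apical calcium channel of distal tubule, stood at 7.29, 12 and 12 CPM in kidney with no count in liver, at least 565-fold higher. Epo, the eighth gene of the list, did not pass the filter, with under 0.02 CPM in all 6 libraries.

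Transcription factors separated the organs by kind. All 12 factors of the liver list were called higher in liver (median -5.14) and all 20 of the kidney list higher in kidney (median 7.24), beside 29.5% and 34% of all genes tested. Factors found in liver and scarcely in kidney were Foxa3, at 76.4, 96.2 and 62.8 CPM in liver and 0.27, 0.208 and 0.0587 CPM in kidney (-8.79 ± 0.40; adjusted p = 1.0e-06), and Creb3l3, Onecut1 and Foxa2, at -8.65, -8.92 and -8.31. Factors that proximal tubule and hepatocytes share differed by far less. Hnf4a, a nuclear receptor of both cell types, stood at 418, 374 and 405 CPM in kidney and 948, 1032 and 1006 CPM in liver (-1.32 ± 0.10; adjusted p = 1.5e-05). Nr1h4, the bile acid receptor FXR, stood at 149, 175 and 165 CPM in kidney and 326, 277 and 327 CPM in liver (-0.93 ± 0.11; adjusted p = 1.7e-04).

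Among the kidney factors, Pax8 stood at 38.2, 51.1 and 47.9 CPM in kidney and 0.479, 0.0768 and 0.149 CPM in liver (7.57 ± 0.43; adjusted p = 3.6e-06). Emx1 and Lhx1 had no count in liver and were at least 891-fold and 294-fold higher in kidney. The positional factors Hoxd8 and Hoxa9, which mark the level of the body axis from which kidney arises, stood at 68.2, 60.6 and 64.1 CPM and at 36.3, 29.5 and 33.1 CPM in kidney, against at most 0.48 CPM in any liver library. For each of these factors the 3 kidney libraries lay within 1.4-fold of each other.

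Proteins that liver secretes into blood were almost all higher in liver. Of 28 acute phase genes, 27 were called higher in liver and none higher in kidney (median -8.63). The complement list gave 19 of 20 and the coagulation list 14 of 18 higher in liver. Crp, C-reactive protein, stood at 0.41, 0.208 and 0.323 CPM in kidney and 438, 482 and 431 CPM in liver (-10.48 ± 0.24; adjusted p = 6.5e-08). Saa1, serum amyloid A, stood at 14.5, 43.1 and 17.3 CPM in kidney and 549, 981 and 273 CPM in liver (-4.59 ± 0.62; adjusted p = 3.8e-04). It was highest in kidney library 5 and in liver library 2 and varied more than 2-fold within each organ. The 3 libraries of each organ overlapped only for 2 members: Saa3, the form made outside liver, stood at 8.65, 6.96 and 4.48 against 4.64, 12.8 and 6.52 CPM (-0.25 ± 0.40; adjusted p = 0.60), and Socs3, the feedback inhibitor of IL-6 signalling, was called with a difference of -0.97 ± 0.34 (adjusted p = 0.037).

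The chains of fibrinogen, the clot protein, differed unequally from organ to organ. Fga stood at 210.0, 478 and 227 CPM in kidney and 7375, 9214 and 7768 CPM in liver (-4.73 ± 0.37; adjusted p = 1.8e-05), and Fgg at 179.6, 484 and 192 against 5738, 6701 and 5425 CPM (-4.38 ± 0.43; adjusted p = 6.3e-05). Fgb, the third chain, stood at 25, 31.2 and 17.8 against 7231, 8330 and 7265 CPM (-8.27 ± 0.28; adjusted p = 2.8e-07). Kidney library 5 was the highest of the kidneys for all 3 chains.

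In the complement list C8b, of the membrane attack complex, stood at 0.432, 0.385 and 0.294 CPM in kidney and 441, 409 and 414 CPM in liver (-10.15 ± 0.17; adjusted p = 3.8e-08). Cfb, factor B of the alternative pathway, differed by far less, at 357, 312 and 315 against 967, 1087 and 1023 CPM (-1.64 ± 0.11; adjusted p = 7.1e-06). The one complement gene higher in kidney was Cfd (adipsin), a product of fat cells, described with the fat genes below. In the coagulation list the genes higher in liver were led by F12 (-10.43 ± 0.60; adjusted p = 3.7e-06), and F2, prothrombin, stood at 4.3, 1.79 and 2.04 CPM in kidney and 2496, 2806 and 2700 CPM in liver (-9.94 ± 0.44; adjusted p = 9.6e-07).

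The 4 coagulation genes higher in kidney were Plau, Plat, Thbd and F3, while Plg, the plasminogen that Plau and Plat activate, was higher in liver (-10.32 ± 0.59; adjusted p = 3.7e-06). Plau, urokinase, stood at 160.1, 190.3 and 252 CPM in kidney and 2.02, 0.384 and 0.316 CPM in liver (7.77 ± 0.66; adjusted p = 2.9e-05). Plat, tissue plasminogen activator, stood at 7.13, 12.5 and 9.34 against 0.319, 0.423 and 0.52 CPM (4.52 ± 0.32; adjusted p = 1.1e-05). Thrombomodulin (Thbd) and tissue factor (F3) were higher in kidney by 2.49 and 1.71.

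Nitrogen, bile acid and drug metabolism were mainly hepatic. Of 10 genes of the urea cycle and of arginine and creatine synthesis, 8 were higher in liver and 2 in kidney. Cps1, the first step of the cycle, stood at 10.6, 2.74 and 4.36 CPM in kidney and 8468, 7242 and 7996 CPM in liver (-10.39 ± 0.64; adjusted p = 5.2e-06). Ass1, which kidney uses to make arginine, differed least, at 2244, 2005 and 1884 against 5311, 4844 and 5597 CPM (-1.36 ± 0.13; adjusted p = 5.5e-05). The paralogs of arginase took opposite sides: Arg1 stood at 6.63, 1.71 and 1.7 CPM in kidney and 3470, 3404 and 3772 CPM in liver (-10.05 ± 0.72), and the mitochondrial Arg2 at 57.2, 59.8 and 51.1 CPM in kidney and 0.532, 0.538 and 1.0 CPM in liver (6.34 ± 0.24; adjusted p = 4.7e-07). Gatm, the renal step of creatine synthesis, was higher in kidney by 6.57, and Gamt, the hepatic step, was higher in liver (-2.37 ± 0.20).

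Of 13 bile acid genes, 10 were higher in liver. Cyp7a1, which sets the rate at which bile acids are made from cholesterol, stood at 0.324, 0.0936 and 0 CPM in kidney and 304, 70.0 and 193 CPM in liver (-10.43 ± 0.94; adjusted p = 4.1e-05), with liver library 2 well below the other two. Abcb11, the bile salt export pump, stood at 0.259, 0.0624 and 0.108 against 262, 276 and 286 CPM (-10.91 ± 0.35; adjusted p = 2.2e-07). The 2 higher in kidney were the subunits of the basolateral organic solute transporter, Slc51a and Slc51b, at 7.11 and 7.31. Slc51a stood at 67.3, 44.6 and 46.9 CPM in kidney and Slc51b at 36.4, 34.4 and 30.0 CPM, and every liver library was under 1 CPM for both. Cyp7b1 was not called (-0.42 ± 0.18; adjusted p = 0.078).

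Of 20 xenobiotic cytochrome P450 genes, 17 were higher in liver and 3 in kidney. Cyp3a11 stood at 2.36, 0.406 and 0.754 CPM in kidney and 1421, 1265 and 1604 CPM in liver (-10.26 ± 0.72; adjusted p = 1.1e-05). Cyp2e1, which has been linked to cisplatin toxicity, was abundant in both, at 1092, 1659 and 1217 CPM in kidney and 7364, 7595 and 9972 CPM in liver (-2.65 ± 0.21; adjusted p = 2.2e-05). The 3 higher in kidney were Cyp2j13 (9.14 ± 0.58), Cyp2a4 (7.32 ± 0.26) and Cyp2j5 (0.68 ± 0.10). In the Cyp4 family of fatty acid hydroxylases, Cyp4b1 stood at 831, 889 and 835 CPM in kidney and 4.27, 3.53 and 3.6 CPM in liver (7.81 ± 0.14; adjusted p = 3.8e-08). Cyp4a10 and Cyp4a14, targets of PPARA, overlapped between the organs, with differences of -0.25 ± 0.32 and -0.16 ± 0.32. The Cyp2a, Cyp2c, Cyp2d and Cyp4a genes have near copies, so their single values are uncertain in the way of the Mup genes.

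In the list of fasting and glucocorticoid genes 13 of 18 were called, beside 63.5% of all genes tested. Among the 5 that were not called were 3 enzymes of gluconeogenesis. Pck1, its control enzyme, stood at 6368, 5092 and 5905 CPM in kidney and 5797, 6189 and 6088 CPM in liver, a difference of -0.06 ± 0.13 with a 95% interval from -0.37 to 0.25. Fbp1 stood at 882, 791 and 829 against 860.0, 769.5 and 858 CPM, a difference of 0.01 ± 0.10 with an interval from -0.23 to 0.25. The libraries of both organs overlapped for these enzymes and for G6pc, at 406, 203 and 351 against 369, 456 and 677 CPM (adjusted p = 0.094). For G6pc the missing call does not show equal levels. The near-equal levels of Pck1 and Fbp1 hold on the trimmed-mean scaling and would move with the median gene, by 0.83 towards kidney, on total counts.

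Of the 18 genes of fasting and glucocorticoid response that hold these enzymes, 11 were higher in liver and 2 in kidney. Of all genes tested 29.5% and 34% were. On total counts 8 of the 18 were higher in liver and 5 in kidney, and with all 24 libraries fitted 9 and 2. Tat, tyrosine aminotransferase, stood at 5.39, 1.52 and 2.46 CPM in kidney and 3590, 4637 and 3971 CPM in liver (-10.35 ± 0.59; adjusted p = 3.4e-06), and Igfbp1 at 7.83, 8.76 and 8.04 against 469.9, 982 and 605 CPM (-6.38 ± 0.31; adjusted p = 1.6e-06). The 2 higher in kidney were Pdk4, which shuts off pyruvate oxidation, at 80.1, 120.0 and 189 against 6.11, 5.21 and 7.87 CPM (4.34 ± 0.34; adjusted p = 2.0e-05), and the aldosterone-regulated kinase Sgk1, at 229, 165 and 267 against 8.05, 12 and 15.2 CPM (4.23 ± 0.28; adjusted p = 8.2e-06). Fgf21, a hepatic fasting hormone, stood at 0.108, 0.323 and 0.372 CPM in kidney and 7.21, 7.67 and 10.7 CPM in liver (-4.98 ± 0.46; adjusted p = 4.7e-05).

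Genes of fatty acid oxidation lay on both sides. Of 20 members 8 were higher in kidney and 9 in liver, beside 34% and 29.5% of all genes tested. The balance became 13 against 1 on total counts, and 2 against 5 with all 24 libraries fitted. Acaa2, the mitochondrial thiolase of the last step, stood at 481, 380.1 and 484 CPM in kidney and 962, 842 and 928 CPM in liver (-1.02 ± 0.13; adjusted p = 2.5e-04). The peroxisomal Ehhadh stood at 774, 627 and 931 against 142, 102 and 173 CPM (2.48 ± 0.23; adjusted p = 4.7e-05). Eci1, an isomerase for unsaturated fatty acids, stood at 244, 282 and 283 against 119.9, 94.1 and 129 CPM (1.24 ± 0.14; adjusted p = 1.3e-04). No library of one organ overlapped the other for these 3 genes.

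Sterol and fatty acid synthesis leaned to liver, with 15 of 18 genes higher there and 1 in kidney. Idi1, the isopentenyl isomerase of sterol synthesis, stood at 11.3, 9.45 and 9.25 CPM in kidney and 259, 233 and 55 CPM in liver (-4.19 ± 0.55; adjusted p = 3.3e-04). Sqle, squalene epoxidase, stood at 39.3, 36.9 and 28.9 against 202, 229.9 and 39.4 CPM (-2.16 ± 0.56; adjusted p = 0.011). Liver library 3 was the lowest of the livers for both genes and for 17 of the 18. Without it the list gave 17 higher in liver and 1 in kidney. Scd1, stearoyl-CoA desaturase, was the gene higher in kidney, at 135, 74.3 and 124 against 46.6, 24.3 and 32.5 CPM (1.69 ± 0.29; adjusted p = 0.0014), and its call was lost when all 24 libraries were fitted together (adjusted p = 0.096).

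Nuclear genes of the respiratory chain were higher in kidney, a tissue dense in mitochondria, for 16 of 18 members and in liver for none (median 0.83, against 0.09 over all genes tested). Ndufb8 of complex I stood at 694, 904 and 655 CPM in kidney and 111, 104 and 111 CPM in liver (2.79 ± 0.15; adjusted p = 2.2e-06), and Cox4i1 of complex IV at 1548, 1782 and 1490 against 542, 541 and 559 CPM (1.55 ± 0.11; adjusted p = 1.2e-05). Sdha and Ndufs1 were not called, at 0.02 ± 0.10 and 0.15 ± 0.10. The 13 mitochondrially encoded genes did not move with them: 3 were higher in kidney and 7 in liver, with differences no larger than 0.99 in size. That count was 9 and 0 on total counts. With all 24 libraries fitted in edgeR none of the 13 passed, and 2 had an unadjusted p under 0.05.

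Clock genes were mostly higher in liver, 13 of 18, with 2 higher in kidney, beside 29.5% and 34% of all genes tested. On total counts they were 7 and 7. With all 24 libraries fitted 6 were higher in liver and 1 in kidney. Ciart, a repressor of the clock, stood at 4.4, 4.83 and 4.2 CPM in kidney and 36.4, 38.9 and 44.4 CPM in liver (-3.16 ± 0.12; adjusted p = 4.8e-07), and Cry2 at 15.3, 13.6 and 12.9 against 58.3, 65.4 and 70.6 CPM (-2.22 ± 0.11; adjusted p = 1.9e-06). Npas2 was higher in kidney at 1.11, 1.3 and 1.1 against 0.177, 0.211 and 0 CPM (3.16 ± 0.87; adjusted p = 0.014). The output gene Dbp and the repressor Nr1d1 overlapped (0.13 ± 0.20 and -0.16 ± 0.17).

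Genes that p53 activates were divided between the organs in a member-specific way. Of 28 targets, 10 were called higher in kidney and 11 higher in liver (75% in all, beside 63.5% of all genes tested), with a median of -0.18. On total counts the same list gave 13 and 5. Cdkn1a, the cell cycle inhibitor p21, stood at 229, 185 and 188 CPM in kidney and 509.5, 516 and 436 CPM in liver (-1.28 ± 0.12; adjusted p = 6.2e-05), without overlap. Mdm2, which degrades p53, stood at 39.6, 26.9 and 32.3 against 139, 91.4 and 98.1 CPM (-1.73 ± 0.20; adjusted p = 1.6e-04). Trp53inp1, which promotes p53-driven apoptosis and autophagy, had the largest difference towards liver, at 82, 57.2 and 67 against 768, 959 and 635 CPM (-3.52 ± 0.21; adjusted p = 3.9e-06). All 3 genes were thus higher in every liver library than in any kidney library; the call of Cdkn1a was lost with all 24 libraries fitted (adjusted p = 0.066).

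Toward kidney, Pmaip1 (NOXA), a BH3-only killer protein, stood at 14.3, 10.0 and 9.24 CPM in kidney and 0.674, 0.403 and 0.0743 CPM in liver (4.85 ± 0.59; adjusted p = 2.1e-04). Bbc3 (PUMA), the other main BH3-only target, leaned the other way, at 5.72, 5.07 and 5.67 against 13.4, 11 and 12.2 CPM (-1.15 ± 0.14; adjusted p = 2.0e-04). Rrm2b, the p53-induced subunit of ribonucleotide reductase, stood at 12.4, 13 and 13.8 against 3.54, 4.15 and 5.07 CPM (1.62 ± 0.17; adjusted p = 8.4e-05). Ccng1, a target that is a standard marker of p53 activity, stood at 539, 313 and 411 CPM in kidney and 241, 164 and 172 CPM in liver (1.13 ± 0.23; adjusted p = 0.003). Gdf15, a stress hormone, was higher in kidney at 53, 47.1 and 44.5 against 31.8, 19.8 and 26.6 CPM (0.89 ± 0.17; adjusted p = 0.0025), but not with all 24 libraries fitted (adjusted p = 0.39). Sesn1, Perp, Eda2r, Tnfrsf10b, Ddb2, Ckap2 and Btg2 were not called.

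**Figure D3:**
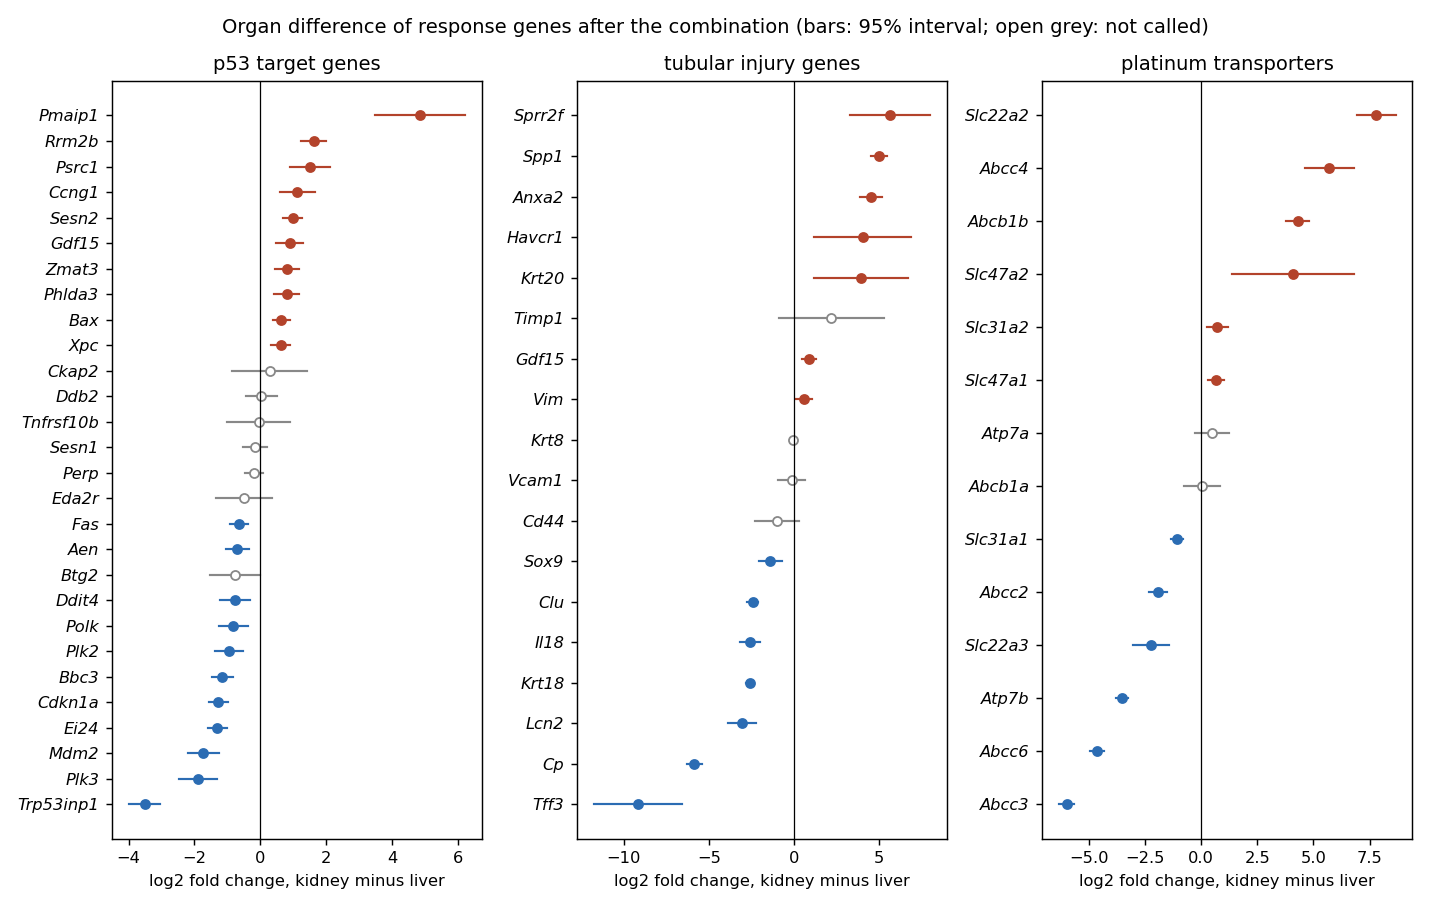
Log2 fold change, kidney minus liver, with its 95% interval for 28 p53 targets, 18 tubular injury genes and 14 of the 15 platinum transporters; red is called higher in kidney, blue called higher in liver, open grey not called. Each panel has members on both sides of 0, from Pmaip1 to Trp53inp1, from Sprr2f to Tff3 and from Slc22a2 to Abcc3.

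Of 18 genes used as markers of tubular injury, 7 were higher in kidney and 7 in liver, shares close to the 34% and 29.5% of all genes tested. Havcr1 (KIM-1), which injured proximal tubule induces, stood at 3.25, 4.67 and 4.35 CPM in kidney and 0.727, 0 and 0 CPM in liver (4.05 ± 1.23; adjusted p = 0.021). Its level in kidney was low, and the call was lost in DESeq2 (adjusted p = 0.104) and without kidney library 5 or kidney library 6 (adjusted p = 0.059 each). Lcn2 (NGAL), an injury marker of distal nephron and an acute phase protein of liver, stood at 134, 154 and 84.6 against 859.9, 1504 and 674 CPM (-3.03 ± 0.35; adjusted p = 1.7e-04). Spp1, osteopontin, stood at 1685, 2318 and 1830 against 67.3, 66.1 and 48.2 CPM (5.01 ± 0.21; adjusted p = 7.3e-07). Clu, clusterin, was higher in liver at 2173, 2697 and 2461 CPM against 408, 440.3 and 508 CPM in kidney (-2.43 ± 0.14; adjusted p = 3.8e-06). Of the paired keratins of simple epithelia, Krt8 did not differ by more than a small margin, at 195, 188 and 171 against 184, 185 and 197 CPM (interval from -0.24 to 0.17), whereas Krt18 stood at 33, 31.4 and 28.6 against 179.8, 185 and 200.1 CPM (-2.60 ± 0.10; adjusted p = 3.9e-07). Vcam1, Cd44 and Timp1, genes of failed repair and scarring, stood under 4 CPM in all 6 libraries and were not called.

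Transporters that carry platinum lay on both sides. Of 15, 7 were higher in kidney and 6 in liver, beside 34% and 29.5% of all genes tested. With all 24 libraries fitted 4 were higher in kidney and 6 in liver. Slc22a2 (OCT2), the renal uptake route, stood at 166, 104 and 127 CPM in kidney and 0.975, 0.403 and 0.39 CPM in liver (7.79 ± 0.37; adjusted p = 1.4e-06). Slc31a1 (CTR1), the copper importer, stood at 100.4, 78.9 and 93 against 212, 187 and 180.1 CPM (-1.09 ± 0.12; adjusted p = 1.1e-04), a call lost on total counts (adjusted p = 0.084). The cation transporter was thus higher in every kidney library and the copper importer in every liver library.

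On the export side, Slc47a1 (MATE1), which passes platinum into urine and bile, stood at 277, 196 and 239.8 CPM in kidney and 160.0, 128 and 160.2 CPM in liver (0.67 ± 0.15; adjusted p = 0.0055). Abcc2 (MRP2), which exports glutathione conjugates, stood at 226, 143 and 192 against 680.2, 668 and 784 CPM (-1.92 ± 0.18; adjusted p = 4.8e-05). The copper pump Atp7b stood at 2.51, 2.26 and 2.46 against 29.3, 25.5 and 28.5 CPM (-3.53 ± 0.12; adjusted p = 2.6e-07), with its paralog Atp7a not called (0.50 ± 0.33; adjusted p = 0.22). Abcc3 and Abcc6 were higher in liver (-5.99 and -4.65), and Abcc4 and Abcb1b in kidney (5.71 and 4.30).

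Enzymes that make and break down glutathione, which binds platinum, were divided by step. Ggt1, the brush-border enzyme that cleaves glutathione conjugates and is required for the nephrotoxicity of cisplatin in mice, stood at 958, 817 and 795 CPM in kidney and 2.78, 3.07 and 2.38 CPM in liver (8.29 ± 0.17; adjusted p = 4.7e-08). Dpep1, the next step of that route, was higher in kidney by 5.81. Gss, the last step of glutathione synthesis, stood at 343, 347 and 321 CPM in kidney against 68.8, 96.4 and 78.5 CPM in liver (2.05 ± 0.14; adjusted p = 7.5e-06), while Gclc, the first and limiting one, overlapped (0.32 ± 0.14; adjusted p = 0.085). Of the 20 genes of this list 10 were higher in kidney and 7 in liver (85% called, beside 63.5% of all genes tested).

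Among the NRF2 targets of that list, Nqo1 stood at 223, 127 and 172 CPM in kidney and 16.1, 15.1 and 14.2 CPM in liver (3.52 ± 0.21; adjusted p = 4.3e-06). Hmox1, heme oxygenase 1, stood at 40.7, 38.5 and 49.5 against 1.72, 3.53 and 3.9 CPM (3.81 ± 0.29; adjusted p = 1.8e-05). The metallothioneins, which bind platinum and other metals, were higher in liver: Mt1 stood at 433, 354 and 342 CPM in kidney and 1493, 2629 and 1563 CPM in liver (-2.33 ± 0.24; adjusted p = 8.8e-05). Mt2 stood at 204, 185 and 154 against 864, 1649 and 924 CPM (-2.66 ± 0.27; adjusted p = 7.8e-05), and for both genes liver library 2 was the highest. Glutathione transferases took both sides, with Gsta2 higher in kidney (4.34 ± 0.26) and Gstp1 higher in liver (-3.04 ± 0.18).

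Of 19 tested DNA repair genes 4 were higher in kidney and 6 in liver, and 11 and 4 on total counts. Of 16 tested cell cycle genes 5 were higher in kidney and 3 in liver, and of all genes tested 34% and 29.5% were. Brca1 had the largest difference, at 0.55, 0.0624 and 0.264 CPM in kidney and 7.28, 9.47 and 5.57 CPM in liver (-4.67 ± 0.66; adjusted p = 4.9e-04), and Ercc1, of nucleotide excision repair, stood at 9.76, 10.1 and 8.01 against 3.44, 4.11 and 2.93 CPM (1.41 ± 0.20; adjusted p = 4.4e-04). Mki67, the general mark of dividing cells, stayed under 0.43 CPM in all 6 libraries and was not called. Ccnd1, the G1 cyclin, stood at 35.5, 52 and 39.9 CPM in kidney and 2.53, 1.69 and 3.34 CPM in liver (4.07 ± 0.27; adjusted p = 7.6e-06).

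Of 20 genes of regulated cell death, 5 were higher in kidney and 9 in liver, and 11 and 5 on total counts. The 14 called are near the 63.5% of all genes tested. Gpx4, the enzyme that blocks ferroptosis, stood at 1842, 1766 and 1465 CPM in kidney and 267, 260.2 and 265 CPM in liver (2.68 ± 0.12; adjusted p = 1.2e-06). Gsdmd, the pore of pyroptosis, stood at 1.39, 2.73 and 1.65 against 39, 36.8 and 43 CPM (-4.36 ± 0.26; adjusted p = 4.0e-06), and Mlkl, the effector of necroptosis, at 0.766, 0.843 and 0.92 against 3.39, 3.57 and 2.54 CPM (-1.91 ± 0.29; adjusted p = 6.7e-04). Pycard (ASC), the inflammasome adaptor, leaned to kidney at 12.9, 12.9 and 10.3 against 0.656, 0.519 and 0.316 CPM (4.59 ± 0.29; adjusted p = 6.2e-06).

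Tlr5, the receptor of CBLB502, had 2 libraries at 0 in kidney. It stood at 0.0863, 0 and 0 CPM in kidney and 2.68, 2.31 and 4.79 CPM in liver (-6.79 ± 1.03; adjusted p = 7.3e-04), so that every liver library lay above every kidney library. Of the 21 tested genes of TLR5 signalling and NF-kB response, 8 were higher in kidney and 7 in liver. These shares are near the 34% and 29.5% of all genes tested. The list gave 11 and 1 on total counts, and 5 and 2 of 24 tested with all 24 libraries fitted. The adaptor Myd88 overlapped, at 17.4, 22.4 and 19.3 against 18, 17.2 and 20.6 CPM (0.08 ± 0.13; adjusted p = 0.61). Sod2, an NF-kB target and a mitochondrial enzyme, stood at 189, 177 and 189 against 187, 173 and 189.7 CPM, with a 95% interval from -0.18 to 0.21. Nfkbia, the inhibitor that NF-kB induces, was higher in liver (-0.40 ± 0.14; adjusted p = 0.038), and Relb and Nfkb2, of the alternative pathway, were higher in kidney (2.71 and 1.24). The chemokine Cxcl1 stood at 14.7, 42.9 and 20.3 CPM in kidney and 16.5, 89.2 and 26.3 CPM in liver (adjusted p = 0.33), and one library of each organ, kidney 5 and liver 2, was more than 2 times the others.

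Interferon-stimulated genes leaned to kidney, 10 of 15 against 2 in liver, beside 34% and 29.5% of all genes tested. The median was 1.4, against 0.09 over all genes tested. On total counts 12 were higher in kidney and 1 in liver, and with all 24 libraries fitted 7 and 1. Cxcl10, an interferon-induced chemokine, had the largest difference, at 13.7, 9.34 and 8.88 CPM in kidney and 0.372, 0.73 and 0.186 CPM in liver (4.63 ± 0.47; adjusted p = 7.6e-05). Ifit3 stood at 41.8, 32.1 and 31.3 against 6.68, 2.59 and 3.56 CPM (3.03 ± 0.34; adjusted p = 1.3e-04), and Ifit2 at 7.32, 9.71 and 8.06 against 1.15, 0.231 and 0.984 CPM (3.40 ± 0.51; adjusted p = 6.7e-04). The 2 higher in liver were Usp18, which dampens interferon signalling (-2.15 ± 0.34; adjusted p = 8.3e-04), and Bst2 (-0.62 ± 0.09). Without kidney library 4, the highest of the kidneys for 11 of the 15, 7 were higher in kidney and 2 in liver.

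Markers of the other cell types an organ holds were low in both organs, and some differed by subtype. Of 11 tested macrophage genes 6 were higher in liver and 1 in kidney, beside 29.5% and 34% of all genes tested. The other 4 were not called, so the share called was near the 63.5% of all genes tested. On total counts 5 were higher in liver and 2 in kidney. The largest differences in the list were those of liver-resident (Kupffer cell) genes: Clec4f stood at 0.0432, 0 and 0 CPM in kidney and 17.5, 18.8 and 25.8 CPM in liver (-10.39 ± 0.54; adjusted p = 2.2e-06), and Marco and Vsig4 had no count in kidney and were at least 339.7-fold and 217-fold higher in liver. The pan-macrophage C1qa and C1qb overlapped (-0.34 ± 0.38 and -0.27 ± 0.36), while C1qc, the third chain of the same complex, was higher in liver without overlap (-1.25 ± 0.45; adjusted p = 0.04). That call was lost in 9 of the alternatives (adjusted p from 0.060 to 0.439), among them total counts and the leaving out of any 1 of kidney libraries 4 and 6 and liver libraries 2 and 3. Csf1r, which other cells of kidney may also carry, was the one higher in kidney (1.72 ± 0.14; adjusted p = 2.3e-05). Neutrophil genes were near 0: the summed level of all 10 was at most 1.7 CPM in any of the 6 libraries, with Ngp, Camp and Ly6g at 0 in both organs. Lymphocyte genes summed to at most 1.77 CPM.

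Of 12 endothelial genes 6 were higher in kidney and 3 in liver, beside 34% and 29.5% of all genes tested. The 3 were genes of liver sinusoids: Stab2 stood at 0.939, 0.437 and 0.48 CPM in kidney and 15.7, 12.1 and 15.6 CPM in liver (-4.55 ± 0.33; adjusted p = 1.2e-05), Lyve1 differed by -2.39 ± 0.54, and Clec4g had no count in kidney and was at least 185-fold higher in liver. Of the other 9, 6 were higher in kidney and Kdr, Cdh5 and Ehd3 were not called (2.29 ± 0.99, 2.15 ± 0.89 and -0.34 ± 0.51). On total counts 8 of the 12 were higher in kidney and 3 in liver. Pecam1, found on endothelium in general, stood at 5.08, 12.9 and 10.5 CPM in kidney and 1.72, 0.576 and 1.67 CPM in liver (2.84 ± 0.50; adjusted p = 0.0015). Emcn, of glomerular and other fenestrated vessels, stood at 3.12, 16.6 and 13 against 0.496, 0.0768 and 0 CPM (5.80 ± 1.06; adjusted p = 0.0019). Within each organ 1 library was the lowest for 9 of the genes, kidney library 4 and liver library 2. Of 10 stromal genes 5 were higher in kidney, led by Tagln and Lrat, and none in liver. The other 5 were not called, whereas 63.5% of all genes tested were called. On total counts 7 stromal genes were higher in kidney and 0 in liver.

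Fat genes were present in the kidney libraries and nearly absent from liver. All 5 tested were higher in kidney, with a median of 10.77, or 7.40 with the 3 that had no liver count at their bound. Adipoq, adiponectin, stood at 20.2, 3.49 and 8.65 CPM in kidney with no count in liver, at least 583-fold higher. Cfd, adipsin, stood at 140.4, 32.3 and 43.6 CPM in kidney and 0.23, 0 and 0.241 CPM in liver (8.80 ± 0.90; adjusted p = 8.4e-05). Kidney library 4 was the highest for both, and the summed level of the list was 292 CPM there against 101 and 143 CPM in kidney libraries 5 and 6. Ucp1, of brown fat, stood at 1.47, 0.146 and 7.06 CPM in kidney, highest in library 6. Exocrine pancreas genes had no count in any of the 6 libraries, and adrenal cortex genes summed to at most 3.92 CPM.

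Kidney library 4 also stood apart within its organ in other groups. It was the highest of the 3 kidneys for 11 of 15 hepatocyte genes, at a median of 1.67 times the mean of the other two, and for all 8 periportal genes (1.79 times). It was the lowest for 11 of 12 genes of thick limb and distal convoluted tubule (0.66 times) and for 9 of 11 endothelial genes with enough counts (0.45 times), with summed endothelial levels of 37.2 CPM against 122 and 88.8 CPM. Its p53 targets were the highest of the kidneys for 20 of 28 (1.29 times). Without it 10948 genes were called, and the counts of the hepatocyte, proximal tubule, thick limb, collecting duct and transcription factor lists were the same as with it. The acute phase list then gave 26 of 28 higher in liver and the tubular injury list 5 higher in kidney and 7 in liver.

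Among the liver libraries, library 3 was the lowest for 17 of 18 genes of sterol and fatty acid synthesis, at a median of 0.44 times the other two. Their summed level was 3305, 3443 and 1271 CPM in liver libraries 1, 2 and 3. The same library was the highest for 11 of 12 macrophage genes (1.5 times) and for 15 of 19 cytochrome P450 genes (1.19 times). Liver library 2 was the highest for 25 of 28 acute phase genes (1.3 times) and the lowest for 19 of 20 genes of fatty acid oxidation (0.74 times). Liver library 1 was the highest for 11 of 15 interferon-stimulated genes (1.6 times). These orders describe 3 libraries per organ and were not tested.

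**Figure D4:**
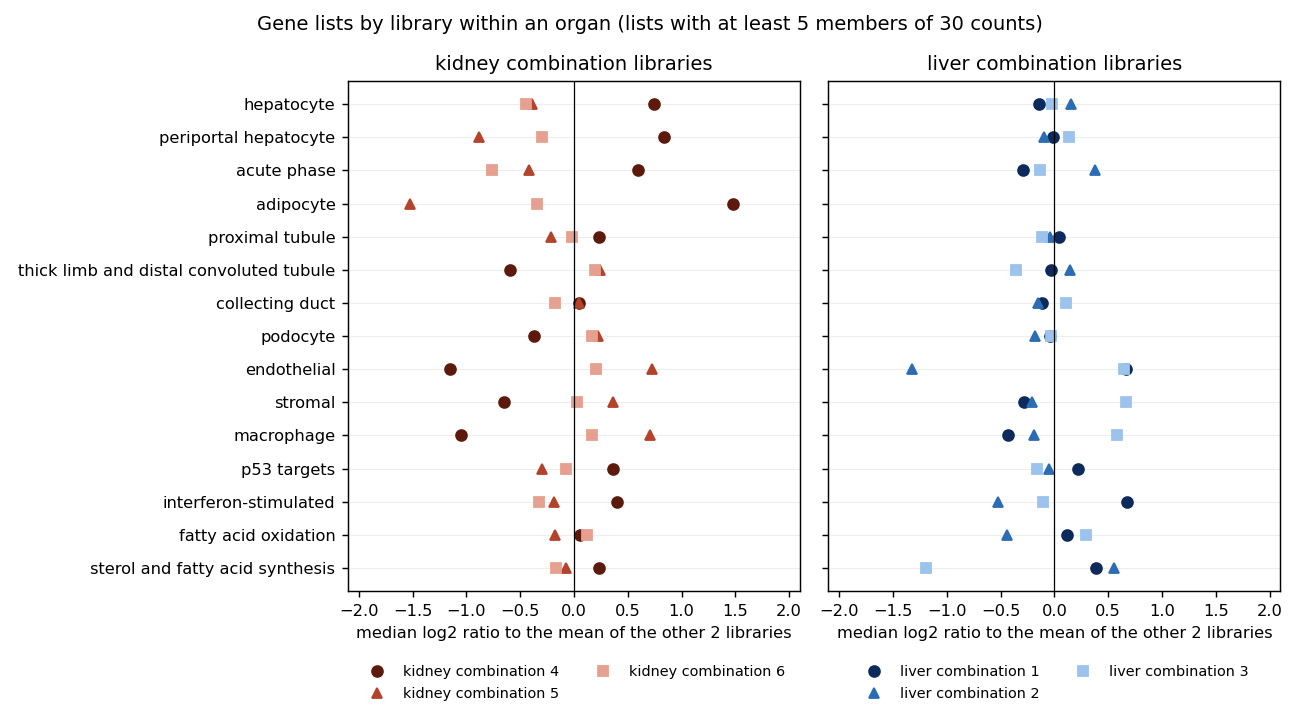
Median log2 ratio of each library to the mean of the other 2 libraries of its organ, for 15 gene lists with at least 5 members of 30 counts or more in the organ; left, kidney libraries 4, 5 and 6; right, liver libraries 1, 2 and 3. Kidney library 4 lies furthest right for hepatocyte, periportal and fat genes and furthest left for thick limb, endothelial, stromal and macrophage genes; liver library 3 lies furthest left for sterol and fatty acid synthesis.

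Whether the organ difference of the combination arm was also that of the other arms was tested as a difference between organ differences, in 1 fit of all 24 libraries and 21570 genes. Levels in this section are CPM on the scaling of all 24 libraries, which are lower than those above by a factor of 1.46 to 1.52. Against the cisplatin arm, 208 genes (0.964%) had another organ difference, 144 of them (0.668% of the 21570) shifted towards kidney and 64 (0.297%) towards liver. Of the 208, 187 were also called between combination and cisplatin within liver. Within kidney that contrast called 2 of all genes (0.00927%), and within liver it called 1768 (8.2%). Without liver cisplatin library 3 and kidney cisplatin library 6 the same contrast called 2755 genes within kidney and 5423 within liver, and of the 2138 genes whose organ difference then differed, 743 were called within kidney and 1631 within liver.

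Efna1, a ligand of Eph receptors, showed such a shift. It stood at 11.2, 15.1 and 13.9 CPM in liver of the combination arm and 1075, 796 and 42 CPM in liver of the cisplatin arm. In kidney it stood at 21.7, 28 and 24.6 CPM in the combination arm and 62.5, 41.9 and 25.9 CPM in the cisplatin arm, and the organ differences differed by 4.76 ± 1.01 (adjusted p = 0.03). Cisplatin livers 1 and 2 lay far above every combination liver, and cisplatin liver 3 by a smaller margin. Il1rn, the IL-1 receptor antagonist, and Cldn14, a tight-junction claudin, were likewise high in cisplatin livers 1 and 2 alone, with 471, 234 and 2.05 CPM and 436, 423 and 5.17 CPM in the cisplatin livers.

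Rnf186, a ubiquitin ligase of epithelia, shifted against the cisplatin and the CBLB502 arm. It stood at 22.8, 24.3 and 19 CPM in kidney and 0.857, 0.479 and 0.453 CPM in liver of the combination arm. In the cisplatin arm the levels were 12.6, 13.3 and 13.3 CPM and 9.4, 9.84 and 3.6 CPM (shift 4.42 ± 0.69; adjusted p = 0.013). The combination kidneys were thus above and the combination livers below all libraries of the cisplatin arm. Shifted towards liver were F3, tissue factor, and Lad1, of basement membrane anchoring. F3 stood at 149.7, 80.8 and 8.03 CPM in the cisplatin kidneys and 7.58, 9.7 and 7.3 CPM in the combination kidneys (-4.70 ± 0.91; adjusted p = 0.018). This count turned on single libraries: it was 0 without kidney combination library 5 (in edgeR, where 2428 genes had an unadjusted p under 0.05) and 1591 without liver cisplatin library 3, 2138 without that library and kidney cisplatin library 6 together, and 2 when the 12 libraries of the arms compared were fitted alone.

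Against the CBLB502 arm, 1501 genes (6.96%) had another organ difference, 881 (4.08%) shifted towards kidney and 620 (2.87%) towards liver. Within kidney 14.8% and within liver 8.91% of all genes differed from CBLB502. Of the 1501, 895 were called against CBLB502 within kidney and not within liver, 410 within liver and not within kidney, and 92 within both. Mdm2 was among them. It stood at 27.1, 18.4 and 22.1 CPM in combination kidneys and 24.3, 17.5 and 20.6 CPM in CBLB502 kidneys, values that overlap. In liver it stood at 91.8, 60 and 64.8 CPM and 17.6, 14.6 and 21.9 CPM, without overlap, and the organ differences differed by -1.89 ± 0.45 (adjusted p = 0.015). The call was lost on total counts (adjusted p = 0.062), without CBLB502 liver 2 (0.051) and without combination liver 1 (0.051). For Cdkn1a, higher than with CBLB502 alone in both organs (5.55 in kidney and 6.57 in liver), the shift of the organ difference was not called (-1.02 ± 0.73; adjusted p = 0.48), although it was in the fit of the 12 libraries of these arms (adjusted p = 0.013).

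Both metallothioneins named above shifted towards liver and Hmox1 towards kidney, in calls that other settings removed. Mt2 stood at 139.8, 126 and 106 CPM in combination kidneys and 10.7, 9.37 and 13.4 CPM in CBLB502 kidneys. In liver the levels were 573, 1082 and 609.9 CPM and 3.85, 1.55 and 1.49 CPM (-4.89 ± 1.24; adjusted p = 0.021). The call was lost in limma-voom (adjusted p = 0.097) and without any 1 of kidney combination libraries 5 and 6, CBLB502 livers 2 and 3 and combination liver 2 (adjusted p from 0.053 to 0.064). The shift of Mt1 was -3.64 ± 1.09 (adjusted p = 0.049), and it was lost without any 1 of the 12 libraries of these arms (adjusted p from 0.071 to 0.113) and in 5 other settings (adjusted p from 0.051 to 0.094), but not in DESeq2, with median-of-ratios scaling or in the fit of those 12 libraries. Hmox1 stood at 1.14, 2.32 and 2.57 CPM in combination livers against 25.1, 14.8 and 15.9 CPM in CBLB502 livers, and at 27.8, 26.3 and 33.8 against 15, 14.2 and 20.2 CPM in kidney (4.04 ± 0.93; adjusted p = 0.012), a call lost in limma-voom (adjusted p = 0.060). The livers of the combination arm lay below every other liver library of the series for this gene.

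Lgals3, galectin 3, stood at 90.0, 73.6 and 73.3 against 12.6, 10.5 and 12.6 CPM in kidney. In liver it stood at 1.01, 0.845 and 0.453 against 4.42, 3.26 and 2.87 CPM (4.92 ± 0.54; adjusted p = 4.8e-05). Every kidney value was thus higher and every liver value lower with the combination. Scd1 stood at 30.9, 16 and 21.4 CPM in combination livers against 2520, 5501 and 2325 CPM in CBLB502 livers, and its organ difference shifted by 6.21 ± 1.21 (adjusted p = 0.0044).

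Among the largest shifts towards liver were those of Myom3, a sarcomere protein, and Rgs16, a regulator of G protein signalling that hepatocytes induce on fasting. Myom3 stood at 28.2, 28.4 and 29.1 CPM in combination livers and 0.0929, 0.116 and 0 CPM in CBLB502 livers (-10.57 ± 1.19; adjusted p = 6.4e-05). Rgs16 stood at 263, 432 and 323 against 4.25, 8.63 and 4.12 CPM (-6.16 ± 1.02; adjusted p = 0.0014). Both were under 0.8 CPM in every kidney library of these arms. By list, beside 4.08% of all genes, 5 of 15 interferon-stimulated genes and 6 of 18 nuclear respiratory chain genes shifted towards kidney. So did 4 of 20 genes of fatty acid oxidation. These lists had no member called towards liver, but other lists did. Of 28 p53 targets 3 shifted towards liver and 0 towards kidney, beside 2.87% of all genes towards liver. Sterol and fatty acid synthesis had 2 of 18 towards kidney and 3 towards liver. Within liver 12 of the 15 interferon-stimulated genes were lower than with CBLB502, and within kidney 1 was higher. In the 12-library fit of these arms 6116 genes were called.

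**Figure D5:**
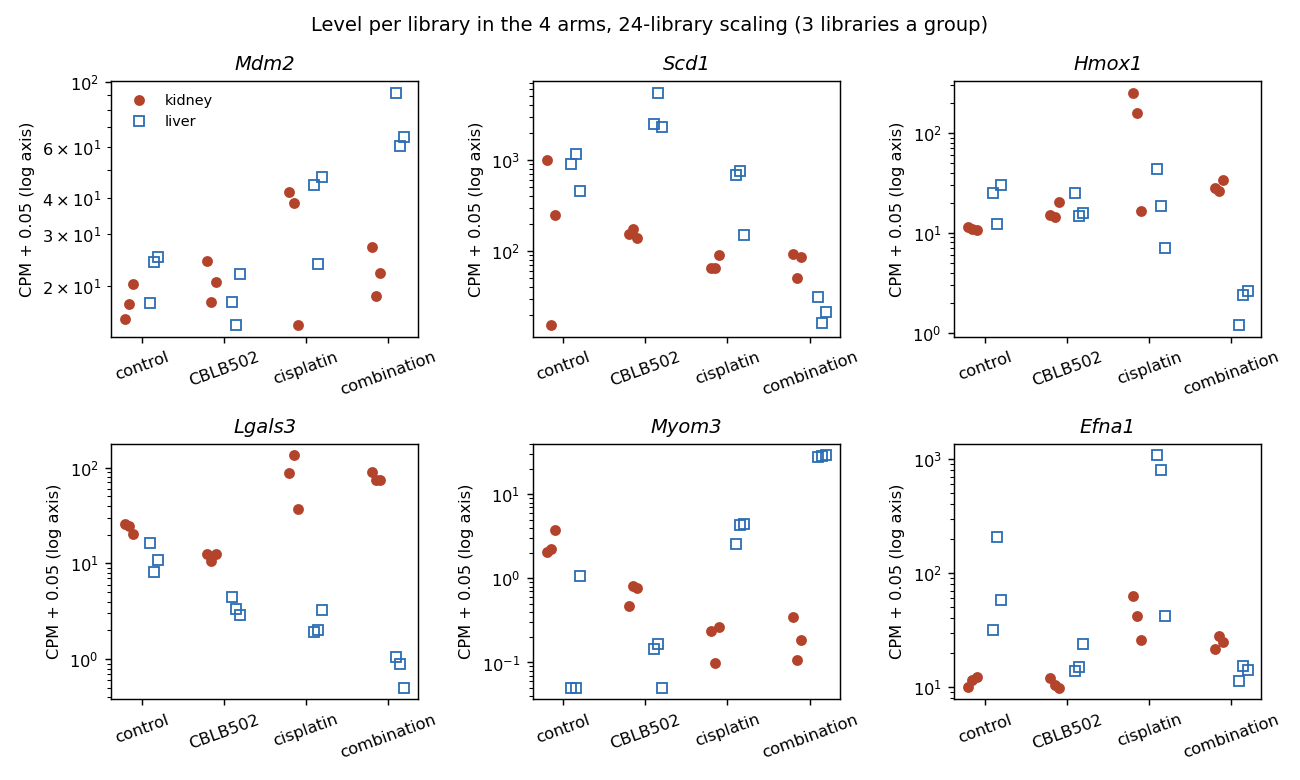
Level per library (CPM + 0.05 on the 24-library scaling, log axis) of 6 genes in the 4 arms, kidney as filled red circles and liver as open blue squares, 3 libraries a group. Mdm2 in liver is highest in the combination, Scd1 lies below kidney in all combination livers and above it in all CBLB502 livers, Hmox1 and Lgals3 in liver are lowest in the combination, Myom3 in liver is highest there, and Efna1 has 2 cisplatin livers far above the rest.

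Against the untreated arm, 2902 genes (13.5%) had another organ difference, 1681 (7.79%) shifted towards kidney and 1221 (5.66%) towards liver. Mitochondrial genes and their nuclear pseudogene copies held 80.8 to 93.2% of the counts of the untreated libraries, against 5.72 to 10.4% in the combination libraries, and the part of this in the count was not tested. On total counts 3128 genes were called, with 19.7% of them towards kidney in place of 57.9%, so that no direction is read from the balance. Hmox1 was called here as against CBLB502, at 4.89 ± 0.95 (adjusted p = 0.0021), a call lost in limma-voom (adjusted p = 0.106). Some of the largest shifts rested on groups at 0 in the untreated arm, where the fitted value depends on the prior count and is no bound. Ptp4a1, a phosphatase of regenerating liver, is listed on more than 1 gene ID: on the first, untreated livers had no count and combination livers 169, 207 and 169.8 CPM, and on the other, untreated livers stood at 34, 33.3 and 23.7 CPM, so the reads of this gene may be split between IDs in counting.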

How the data were processed

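Gene counts of 24 bulk RNA-seq libraries (Trizol RNA, Illumina libraries, per the labels' protocols) were used as deposited by the authors; the 24 columns of FPKM per library were not used. Of the upstream tools, cutadapt 1.9 and FastQC are named in the submitters' processing notes. Aligner, counter, strand setting and genome build are not given in the sources used here; 99.65% of the gene IDs were found in GENCODE vM21.

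The 6 combination libraries were fitted with edgeR 4.0.16 (R 4.3.3): genes passing filterByExpr, TMM scaling, the quasi-likelihood test and Benjamini-Hochberg adjustment at 0.05. Organ differences were compared between arms in 1 edgeR fit of all 24 libraries. Errors are standard errors, and intervals cover 95%. The script was tested on simulated counts. Alternatives used DESeq2 1.42.0, limma-voom 3.58.1, other scalings, no filter, no mitochondrial genes, a 2-fold threshold (glmTreat), and each library left out.

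Named genes were the 10 largest called differences in each direction without overlap and with at least 100 CPM in the higher organ, the 5 largest in each direction between arms with at least 20 CPM in a group, up to 4 called members of each list with at least 5 CPM, and a set of members named whatever their result. Predicted, pseudogene and mitochondrial genes were left out of the first kinds. Some genes that these rules name are not reported here. Other list members were picked as examples after their values were seen. The members and lists were chosen with earlier results of these data known. A treated kidney column was tied to its group, not to a single sample. Arg2, Ccnd1, Cfb, Cpt1b, Csf1r, Dbp, Ddb2, Epo, Gss, Mt2, Myd88, Nfkb2, Onecut1, Ptp4a1, Pycard, Rgs16, Slc22a12, Slc34a1, Slc51a, Slc51b, Slc5a2, Spp1, Tagln and Umod share over 10% of their exon bases with another gene of the annotation, and their values are uncertain, as are those of gene families of near copies.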

Additional observations from a re-analysis of the deposited data

Results flagged for a closer look

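The results below stood out because the organ difference of the combination arm differed from that of another arm by the test of the difference itself, with the shift given as combination minus the other arm on the log2 scale. The counts were 208 genes against cisplatin, 1501 against CBLB502 and 2902 against no treatment.

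Against cisplatin, the shifts towards kidney were 6.62 for Il1rn, 6.14 for Cldn14, 4.76 for Efna1, 4.42 for Rnf186 and 3.71 for Isyna1, which makes inositol phosphate. In liver, Isyna1 stood at 57.8, 67.5 and 3.89 CPM with cisplatin and 2.69, 3.81 and 2.14 CPM with the combination. The shifts towards liver were -4.70 for F3, -3.03 for Lad1, -2.94 for Cdcp1, -2.84 for Mid1ip1, which activates fatty acid synthesis, and -2.75 for Ankrd33b. Mid1ip1 stood at 53.3, 56.4 and 14.3 CPM in cisplatin kidneys, with library 6 the lowest, and 13.3, 14.3 and 14.3 CPM in combination kidneys. Kidney cisplatin library 6 was also the lowest of its group for Ankrd33b, at 158, 103 and 24.8 CPM. These calls were not stable. All 10 were lost on total counts, 9 when only the 12 libraries of these arms were fitted, 5 in limma-voom and 2 with no filter, and with 1 library left out 84 of 120 results were lost. All 10 were called without liver cisplatin library 3 and kidney cisplatin library 6 together, an alternative chosen after seeing the data.

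Against CBLB502, the shifts towards kidney were 6.21 for Scd1, 5.72 for Rnf186, 5.16 for Elovl3, an elongase of long fatty acids, 4.92 for Lgals3 and 4.84 for Adra2b, an adrenergic receptor. Elovl3 stood at 175, 149 and 145 CPM in CBLB502 livers and 9.56, 5.32 and 14.1 CPM in combination livers. The shifts towards liver were -10.57 for Myom3, -6.16 for Rgs16, -5.52 for the ferritin receptor Scara5 and -5.06 for Fam107a. Mdm2, Mt1, Mt2 and Hmox1, described above, shifted by -1.89, -3.64, -4.89 and 4.04.

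Against no treatment, the shifts towards kidney were 8.88 for Npy, 8.66 for Mug2, 8.57 for Ces3b, 8.46 for Sfrp1 and 8.35 for Tfr2, a hepatic iron sensor. Npy stood at 65.8, 0 and 0 CPM in untreated livers and Sfrp1 at 8.46, 0 and 0 CPM, so that both values rest on untreated liver 1. The shifts towards liver were -15.87 for Ptp4a1, -10.49 for Myom3, -10.20 for Cpt1b, the muscle form of the carnitine transferase, and -7.69 for Rgs16. The first gene ID of Ptp4a1 had no count in any untreated liver, so that its value depends on the prior count. Hmox1 shifted by 4.89.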

How the results depend on the processing

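The 11618 genes called between the organs became 11387 to 12021 under other scalings by median of ratios or upper quartile, no filter, no mitochondrial genes, DESeq2 and limma-voom, and 10570 to 11448 with 1 library left out. A threshold of 2-fold left 5926. With all 24 libraries fitted 8678 were called, 8247 of them in common. Upper-quartile scaling moved the median of all genes by 0.13 and total counts by 0.83, so that the 2425 genes called higher in liver on total counts compare with 5402 here. On total counts, 3 of the named genes changed sign: Nfkb1 (0.088), mt-Atp8 (0.062) and mt-Nd4 (0.30). Of the named organ differences, 2 were lost in DESeq2, 4 in limma-voom and 19 with all 24 libraries fitted. Those in limma-voom included Mup12, Emcn and Cfd (adjusted p = 0.092, 0.098 and 0.082).

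The 208 genes whose organ difference differed from the cisplatin arm ranged from 0 to 1591 with 1 library left out. They were 3 on total counts, 117 without a filter, 2 in the fit of 12 libraries, 1210 in DESeq2 and 675 in limma-voom. Without liver cisplatin library 3 and kidney cisplatin library 6 together, an alternative added after seeing the data, they were 2138. Against CBLB502 the 1501 genes were 503 on total counts, 2983 in DESeq2, 2906 in limma-voom and 6116 in the fit of 12 libraries, and 725 to 1166 with 1 library left out, lowest without kidney CBLB502 library 5. Against no treatment the 2902 genes were 4402 in DESeq2 and 2024 to 3007 with 1 library left out. On total counts the share of shifts towards kidney was 73% in place of 58.7% against CBLB502 and 19.7% in place of 57.9% against no treatment. Against cisplatin it was 61.6% with median-of-ratios scaling in place of 69.2%. With 1 library left out, the shift of Npy against no treatment ranged from -4.99 to 9.47 and that of Sfrp1 from -2.38 to 9.14, with the sign changed in both without untreated liver 1. The cause of these changes was not tested.

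No paired analysis was possible because the treated kidney columns are numbered 4 to 6, numbers that the labels do not use. With 3 libraries a group, an exact permutation test of a single gene could not reach a p below 0.1, so all calls rest on models across genes. Counting error is small for genes above 1 CPM at this depth. Genes with no count in an organ allow only a lower bound, taken with 3 counts as the floor.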
